A study of Rattus norvegicus with 24 samples.

Results

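Mitochondrial ribosomal protein genes are the nuclear genes whose symbols start with Mrpl or Mrps followed by a number, for the large and the small subunit of the ribosome inside mitochondria. They were taken by symbol from probe sets that the platform annotation gives exactly 1 gene symbol, with the probe set of highest mean signal standing for a gene. This gave 73 of the 14217 genes so represented on the array. By known position in the mammalian ribosome 48 belong to the large subunit, Mrps18a and Mrps30 among them, and 25 to the small subunit. RNA was measured on 24 Affymetrix arrays in 4 groups of Brown Norway rats: pachytene spermatocytes of young rats (4 months), pachytene spermatocytes of aged rats (18 months), round spermatids of young rats and round spermatids of aged rats, with 6 arrays each. No treatment or genetic change is given for any group. Pachytene spermatocytes are meiotic germ cells whose chromosomes are paired. Round spermatids are haploid, made by the divisions that come next. Both were fractions of digested testes separated by sedimentation (STAPUT), with a stated purity above 83%, so each array also holds RNA of other cells. Fewer cells of a type and less RNA per cell cannot be told apart in such samples. The labels do not say what the number in a title stands for. The same number at the same age was taken as 1 rat, which gives 12 rats in all.

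The mitochondrial genome encodes a small set of membrane proteins of the respiratory chain, with its own ribosomal RNAs and transfer RNAs. All proteins of the ribosome that translates them are made from nuclear genes and imported. Many have a counterpart in the bacterial ribosome and others exist only in mitochondria, and germ cells are known to remodel their mitochondria between meiosis and the mature sperm.

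Array medians on the deposited log2 scale lay between 6.62 and 7.38 in pachytene spermatocytes and between 7.56 and 7.86 in round spermatids, and the number of rats limits the precision. Age changes were therefore measured within a cell type after quantile normalization (the within-type scale). The cell types were compared after an offset of 90.29 was added to the linear pachytene values, which matched 45 control probe sets, and all 24 arrays were quantile normalized (the matched scale). Pachytene markers fitted the labels, with 8 of 9 lower and 1 higher in round spermatids, as did 6 of 6 round spermatid and acrosome markers that were higher there. Pachytene arrays of young rats 1, 10 and 11 stood apart from those of the other 3 young rats. Their late spermatid markers lay at 5.85 to 6.17 above the mean of all genes, against 5.17 to 5.34 in young rats 2, 3 and 13. The counts for age in pachytene spermatocytes, and the changes of the members named there, are given with and without these rats. All members were measured, and on the matched scale 73, 72, 71 and 69 of them lay above the median probe set in the young and then the aged pachytene spermatocytes, and in the young and then the aged round spermatids. Mrpl16 was the member with the lowest signal in each group, and differences of such dim members are compressed.

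The stretches of genome in front of 6 members are shown first, since their transcripts carried the largest differences between the cell types or rose with age beside a neighbour. They run from 250 bases before to 50 bases after the RefSeq start on assembly GRCr8, and 59 of the 73 members have such a stretch in the table. Mrpl45 (chr10:82804789-82805088, plus strand), Mrpl53 (chr4:117172793-117173092, plus strand) and Mrpl17 (chr1:169575650-169575949, minus strand) had the largest differences towards pachytene spermatocytes. Mrpl2 (chr9:21834558-21834857, minus strand) and Mrpl47 (chr2:117447312-117447611, minus strand) had the largest towards round spermatids. Mrpl46 (chr1:142116981-142117280, minus strand) shares its stretch with Mrps11, which is read from the other strand. Capitals mark matches, on either strand, to the motifs GCGCANGCG (nuclear respiratory factor 1), CCGGAAG (ETS factors), AANATGGCG (YY1), GGGCGG (SP and KLF factors), CCAAT, TGACGTCA (CRE) and AACNGTT (MYB), and matches may overlap.
Mrpl45: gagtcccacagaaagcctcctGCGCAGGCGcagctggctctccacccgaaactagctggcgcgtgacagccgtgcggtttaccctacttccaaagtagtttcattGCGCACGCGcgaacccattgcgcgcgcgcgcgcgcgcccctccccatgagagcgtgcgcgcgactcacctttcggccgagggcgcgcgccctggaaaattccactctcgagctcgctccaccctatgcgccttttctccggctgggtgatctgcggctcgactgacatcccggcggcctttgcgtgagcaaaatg
Mrpl53: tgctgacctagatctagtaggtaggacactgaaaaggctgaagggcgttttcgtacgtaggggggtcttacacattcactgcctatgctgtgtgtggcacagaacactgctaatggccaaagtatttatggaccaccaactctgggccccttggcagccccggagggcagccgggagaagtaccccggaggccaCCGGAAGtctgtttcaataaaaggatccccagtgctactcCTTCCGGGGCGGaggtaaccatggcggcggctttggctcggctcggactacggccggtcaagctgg
Mrpl17: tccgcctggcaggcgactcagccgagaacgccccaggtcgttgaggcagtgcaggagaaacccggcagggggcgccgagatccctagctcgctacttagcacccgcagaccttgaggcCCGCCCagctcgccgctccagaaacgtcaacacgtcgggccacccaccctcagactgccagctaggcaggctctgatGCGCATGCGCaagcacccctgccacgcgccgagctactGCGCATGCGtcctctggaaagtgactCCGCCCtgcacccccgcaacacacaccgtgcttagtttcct
Mrpl2: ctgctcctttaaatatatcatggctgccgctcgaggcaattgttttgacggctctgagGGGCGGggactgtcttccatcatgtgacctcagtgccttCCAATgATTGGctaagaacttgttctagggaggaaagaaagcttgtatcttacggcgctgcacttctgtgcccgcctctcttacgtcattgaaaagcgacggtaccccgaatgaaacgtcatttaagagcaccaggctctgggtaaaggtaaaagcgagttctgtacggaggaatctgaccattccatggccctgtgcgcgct
Mrpl47: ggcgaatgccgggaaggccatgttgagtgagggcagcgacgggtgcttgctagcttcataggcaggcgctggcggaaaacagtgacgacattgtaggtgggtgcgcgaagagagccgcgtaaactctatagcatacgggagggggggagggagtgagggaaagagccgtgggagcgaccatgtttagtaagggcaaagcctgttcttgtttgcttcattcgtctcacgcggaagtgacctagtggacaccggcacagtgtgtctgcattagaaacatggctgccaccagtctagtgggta
Mrpl46: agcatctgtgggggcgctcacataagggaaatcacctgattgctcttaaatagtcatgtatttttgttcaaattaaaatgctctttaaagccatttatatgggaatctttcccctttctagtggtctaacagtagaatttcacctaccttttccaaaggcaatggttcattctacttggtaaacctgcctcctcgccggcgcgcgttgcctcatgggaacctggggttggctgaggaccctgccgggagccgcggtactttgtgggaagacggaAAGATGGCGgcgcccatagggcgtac
The stretch of Mrpl45 held 2 matches to the nuclear respiratory factor 1 motif and that of Mrpl17 held 3, while Mrpl53 had 2 ETS matches. Mrpl47 had no match to any of these letters. Over all members with a stretch, 11 of 59 (18.64%) held the nuclear respiratory factor 1 motif, against 11.24% of the 11701 genes of the array with one. An ETS match stood in 20 members (33.9%, against 15.05%), and a YY1 match in 12 (20.34%, against 5.34%). The SP and KLF motif was found in 50.85% of members and 57.51% of array genes, and CCAAT in 44.07% and 37.29%. CRE and MYB matches were found in 1 member each (1.69%), against 2.85% and 3.53%. A match is a run of letters and not a measured binding site. Members with an ETS match had 1 higher and 12 lower of 20 in round spermatids, and those with a YY1 match 2 higher and 7 lower of 12. Nuclear respiratory factor 1 matches went with 1 and 8 of 11, SP and KLF with 3 and 20 of 30, and CCAAT with 5 and 16 of 26. The single members with a CRE or a MYB match were lower. All 73 members had 9 higher and 51 lower, and all genes 49.2% and 39.1%. The median log2 differences of these motifs, in the order given up to CCAAT, were -0.32, -0.23, -0.24, -0.30 and -0.22. Over all members it was -0.33.

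Between the cell types, members were mostly lower in round spermatids. With limma and a Benjamini-Hochberg adjusted p under 0.05 over all probe sets, 51 of 73 were lower, 9 were higher and 13 did not pass. Over all genes 39.1% were lower and 49.2% higher. The median log2 difference of the members was -0.33, against 0.06 over all genes. Small subunit genes numbered 19 lower and 2 higher of 25, and large subunit genes 32 lower and 7 higher of 48. Of 43 members with a bacterial counterpart 33 were lower and 4 higher, and of 30 without one 18 and 5. In young rats alone 42 were lower and 16 higher, and in aged rats alone 58 and 8. When the offset was followed by median centring 64 were lower and 6 higher, and with no further normalization 65 and 4. The shares of all genes called under these settings are not given here. Relative to all genes the members' median was -0.32, -0.38, -0.6 and -0.6 in the same order. It was -0.38 with all rats on the matched scale. Markers of Sertoli cells, the supporting cells of the tubule, differed too: 8 of 10 were lower and 2 higher in round spermatids, with list levels of 0.80 to 2.08 above the mean of all genes in pachytene arrays and -0.76 to 0.19 in round spermatid arrays. Higher in round spermatids were 10 of 10 late spermatid markers (4.23 to 5.71 in pachytene and 5.79 to 5.93 in round spermatid arrays), 5 of 5 macrophage markers (-1.56 to -1.21 and -0.78 to -0.40), 4 of 5 peritubular markers and 2 of 3 endothelial and blood markers. Spermatogonia markers had 4 higher and 2 lower of 8, and Leydig cell markers 1 and 3 of 6. The part of these lists in the result was not tested.

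**Figure D1:**
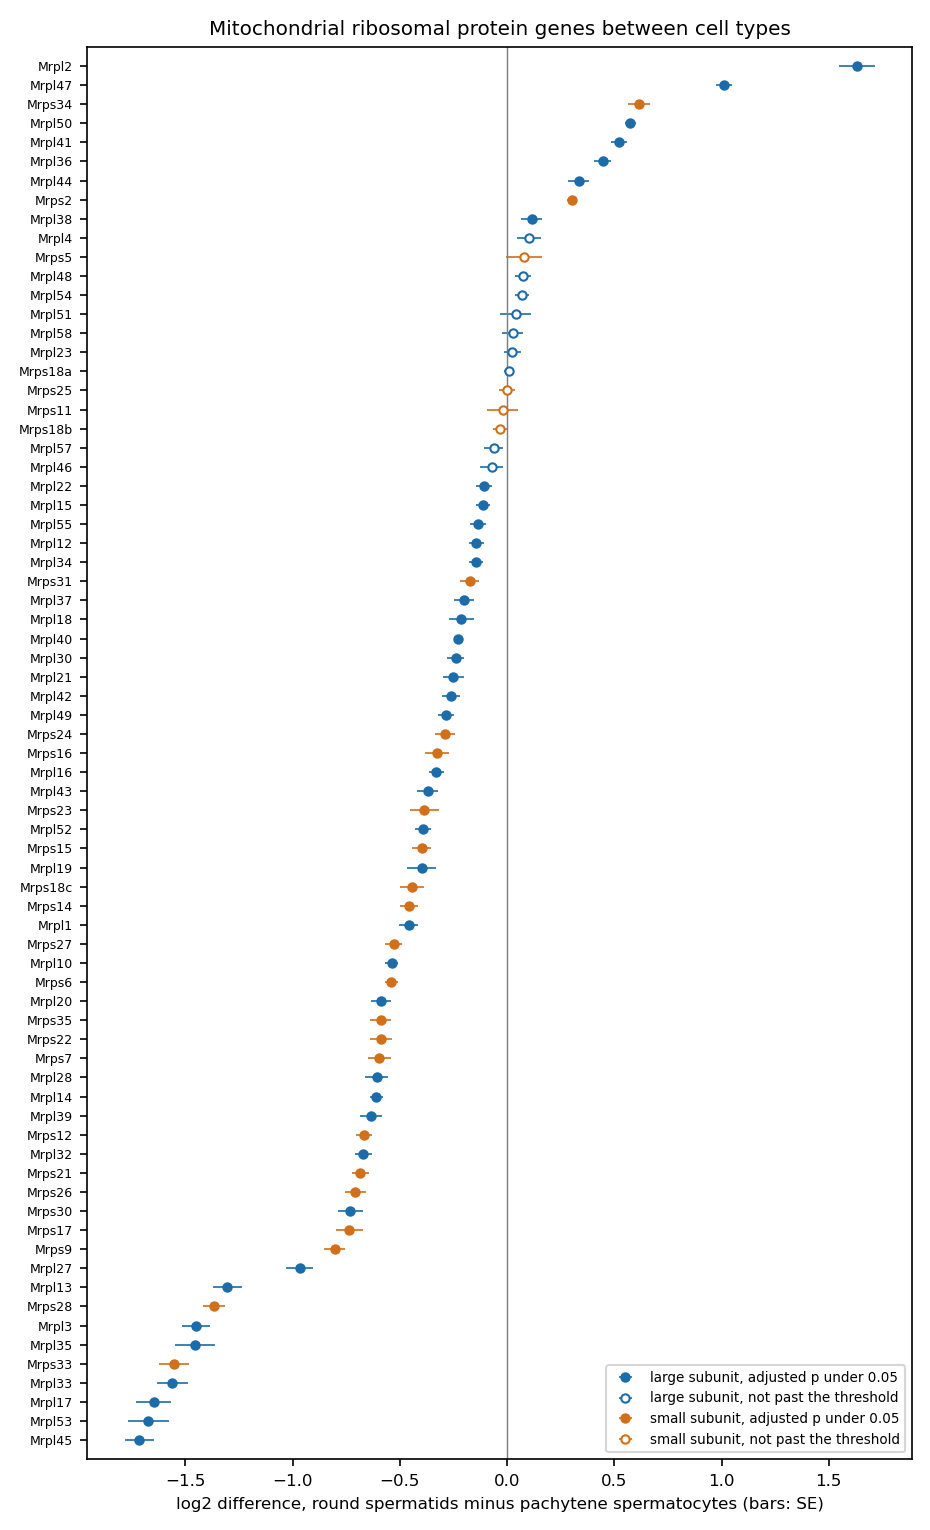
Log2 difference between round spermatids and pachytene spermatocytes (12 arrays each) for the 73 members, sorted, with bars for the standard error and colours for the subunit. Filled points passed the threshold, 51 to the left of 0 and 9 to the right, from -1.71 for Mrpl45 to 1.63 for Mrpl2.

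Mrpl45 (probe set 1371790_at), which anchors the ribosome to the inner membrane at the exit of the nascent chain, had the largest difference. Its lowest, median and highest log2 signals on the matched scale were 9.95, 10.38 and 10.45 in young pachytene spermatocytes and 10.21, 10.33 and 10.49 in aged ones. Young round spermatids gave 8.39, 8.64 and 9.02, and aged ones 8.46, 8.53 and 8.63. The cell types did not overlap, and young rat 1 was the lowest pachytene array. The transcript was 3.28-fold lower in round spermatids (log2 difference -1.71 with SE 0.068 from 12 arrays of each type, limma adjusted p = 1.1e-16).

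Mrpl53 (1367477_at), a large subunit protein without a bacterial counterpart, ran from 9.88 over a median of 10.68 to 11.07 in young pachytene spermatocytes. The aged ones lay at 11.17, 11.23 and 11.36. In round spermatids the values were 9.21, 9.25 and 9.38 in young rats and 9.17, 9.25 and 9.28 in aged rats. Every aged pachytene array lay above every young one, and both lay above all round spermatid arrays. The difference between cell types was 3.19-fold (log2 -1.67, SE 0.096, adjusted p = 9.6e-14), and it was -1.33 in young and -2.01 in aged rats.

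Mrpl17 (1369013_a_at), a counterpart of the bacterial protein L17, lay at 10.17, 10.38 and 10.79 in young and 9.78, 10.12 and 10.26 in aged pachytene spermatocytes. Round spermatids gave 8.37, 8.69 and 9.03 in young and 8.32, 8.56 and 8.60 in aged rats. The cell types were again separate, at a 3.13-fold difference (log2 -1.65, SE 0.082, adjusted p = 7.43e-15). Next in size were Mrpl33 (2.95-fold), Mrps33 (2.93-fold), Mrpl35 (2.74-fold), Mrpl3 (2.73-fold) and Mrps28 (2.58-fold). Mrpl3 is a counterpart of a protein near the catalytic centre of the bacterial large subunit. Mrps33 and Mrps28 were the small subunit genes with the largest falls.

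Members of the stalk and of the decoding centre were lower too. Mrpl10 and Mrpl12 form the stalk that recruits translation factors. They were lower by log2 differences of -0.54 (adjusted p = 5.39e-14) and -0.14 (adjusted p = 0.000702). Mrps12, at the decoding centre, was lower by -0.67 (adjusted p = 3.71e-14). Of the paralogs of bacterial S18, Mrps18c was lower (-0.44, adjusted p = 1.55e-07), whereas Mrps18b (-0.03, adjusted p = 0.375) and Mrps18a (0.01, adjusted p = 0.726) did not pass. Differences between these paralogs were not tested. Mrps18a turned to -0.20 with median centring and -0.26 with no further normalization, and passed as lower in both (limma adjusted p = 0.00404 and 0.000111). On the matched scale Mrpl58, which frees stalled chains from the ribosome, did not pass either (0.03, adjusted p = 0.626). With the threshold missed, equality is not shown for these genes.

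Among members higher in round spermatids, Mrpl2 (1398911_at), a counterpart of the bacterial L2 beside the catalytic centre, stood first. It lay at 8.07, 8.16 and 8.53 in young and at 7.95, 8.0 and 8.09 in aged pachytene spermatocytes. Young round spermatids gave 9.58, 9.96 and 10.65, and aged ones 9.40, 9.51 and 9.60. No pachytene array reached a round spermatid array, and young rat 10 was the highest round spermatid array. Mrpl2 was 3.10-fold higher in round spermatids (log2 difference 1.63, SE 0.082, adjusted p = 8.93e-15).

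Mrpl47 (1382144_at), at the exit of the nascent chain, ran from 10.83 over 10.88 to 11.21 in young and from 10.82 over 10.88 to 10.99 in aged pachytene spermatocytes. In round spermatids it ran from 11.87 over 11.93 to 12.06 and from 11.86 over 11.92 to 11.93. The groups of the cell types were separate, with young rat 1 the highest pachytene array, and the difference was 2.02-fold (log2 1.01, SE 0.036, adjusted p = 1.68e-17). Mrps34 (1371608_at), a small subunit protein found only in mitochondria, lay at 11.09, 11.58 and 11.66 and at 11.76, 11.97 and 12.06 in young and aged pachytene spermatocytes. It lay at 12.08, 12.31 and 12.38 and at 12.30, 12.42 and 12.45 in round spermatids. The highest pachytene array lay just under the lowest round spermatid array, and the mean difference was 0.61 (SE 0.052, adjusted p = 1.48e-10).

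Mrpl50 (0.57), Mrpl41 (0.52), Mrpl36 (0.45), Mrpl44 (0.33), Mrps2 (0.30) and Mrpl38 (0.11) were the other members higher in round spermatids. With the same 2 scalings that moved Mrps18a, Mrps2 turned to -0.23 and -0.29 and Mrpl38 to -0.37 and -0.43, and the direction of both is therefore not settled. No other of the 60 members called changed sign with them. Several probe sets of 1 gene disagreed for 4 members: the probe set of highest signal was lower, and at least 1 other higher, for Mrpl37, Mrps15, Mrps18c and Mrps24. Mrpl37 gave -0.20 on its brightest probe set and 0.69 and 0.39 on the others. Mrpl51 is outside this count, since its brightest probe set did not pass (0.04, limma adjusted p = 0.6). Its other probe sets all passed as lower in round spermatids (-1.46, -1.01 and -1.08). The difference of Mrpl51 between cell types is therefore not settled.

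**Figure D2:**
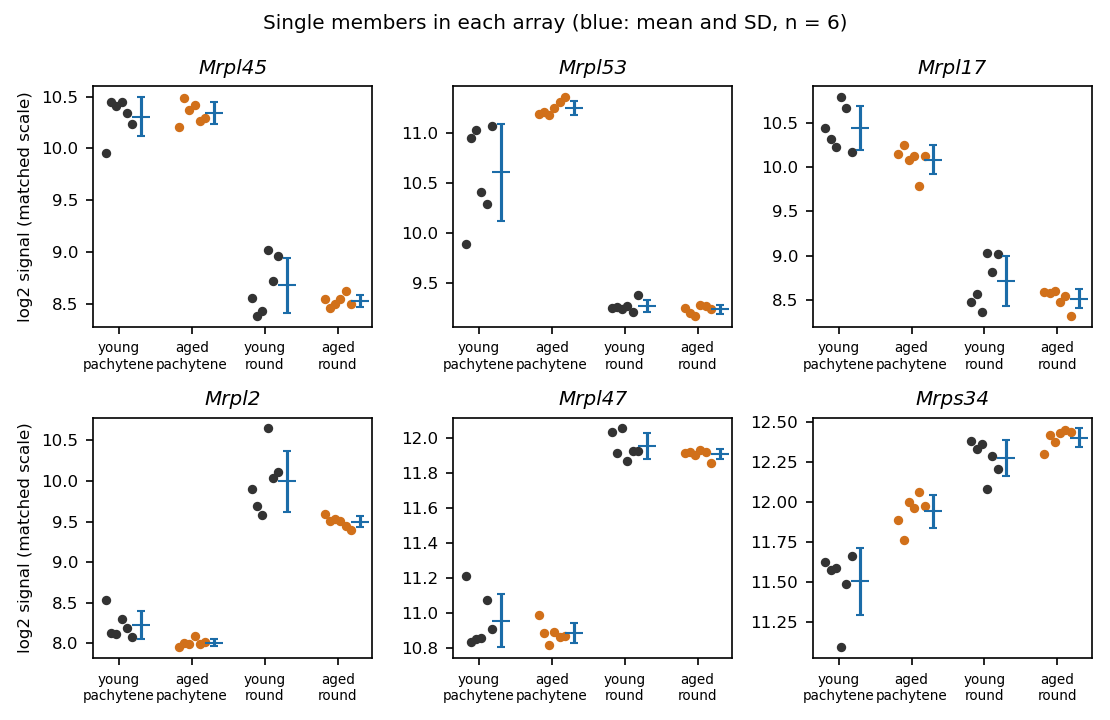
Log2 signal on the matched scale (vertical axes, each with its own range) of 6 members in every array, by group, with mean and SD in blue. Mrpl45, Mrpl53 and Mrpl17 lie lower in round spermatids and Mrpl2, Mrpl47 and Mrps34 higher, with no overlap between the cell types in these 6 members.

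Some members face a neighbouring gene across a shared stretch of promoter. Of 59 members with a promoter, 15 (25.42%) overlapped that of a gene on the other strand, against 12.35% of the array genes. In 10 distinct pairs both genes were measured, and in 8 both passed between cell types, 6 in the same direction. Most genes passed in this comparison, 49.2% of all genes as higher and 39.1% as lower. Pairs of other genes were not counted, so these pairs are not shown to differ from them. Mrpl47 was higher by 1.01 while Ndufb5, a subunit of complex I on the other strand, stood at -0.99. Mrps7 stood at -0.60 and Gga3 at 0.47. Mrpl46 and Mrps11 face each other, and neither passed between cell types (-0.07 and -0.02).

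With age, pachytene spermatocytes had 27 members higher and 9 lower, and 37 did not pass. Over all genes 25.6% were higher and 19.1% lower. The median log2 change of the members was 0.15, against 0.05 over all genes. Without young rats 1, 10 and 11 there were 16 higher and 5 lower, all of them among those called with all rats, against 17.2% and 12.7% of all genes. The median was then 0.05, the same as over all genes. On the deposited scale, where all genes shifted by a median of -0.25, the split turned to 9 higher and 16 lower. With median centring (all genes 0.13) it was 54 higher and 5 lower. The shares of all genes called on these scalings are not given here. Relative to all genes the members' median was 0.26 higher on both of these scalings, and 0.10 on the within-type scale.

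The mean of the 73 members above the mean of all genes in an array, on the within-type scale, was 2.25 ± 0.14 (SD, n = 6) in young and 2.39 ± 0.03 in aged pachytene spermatocytes. The lowest young arrays were those of rat 1 (2.00), rat 11 (2.17) and rat 10 (2.27), and the other 3 lay at 2.31 to 2.39, against 2.36 to 2.43 in aged rats. In round spermatids the mean was 1.25 ± 0.03 in young and 1.25 ± 0.02 in aged rats. Other cells' markers moved beside it: with age in pachytene spermatocytes 8 of 10 Sertoli markers fell (list level 1.89 to 2.48 in young and 1.10 to 1.47 in aged rats), as did 9 of 10 late spermatid markers (5.17 to 6.17 and 4.75 to 5.28) and 4 of 8 spermatogonia markers (-1.36 to -0.90 and -1.75 to -1.55). Without young rats 1, 10 and 11 the falls numbered 7, 6 and 4. Of 5 peritubular markers 2 rose (list level -1.07 to -0.74 in young and -0.85 to -0.61 in aged rats), and 3 without those rats. Of 3 endothelial and blood markers 2 rose (-1.60 to -1.49 and -1.30 to -1.21), with or without them. Falls were also found for 1 of 6 Leydig cell, 1 of 5 macrophage and 2 of 6 round spermatid and acrosome markers. The part of these lists in the members' changes was not tested.

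**Figure D3:**
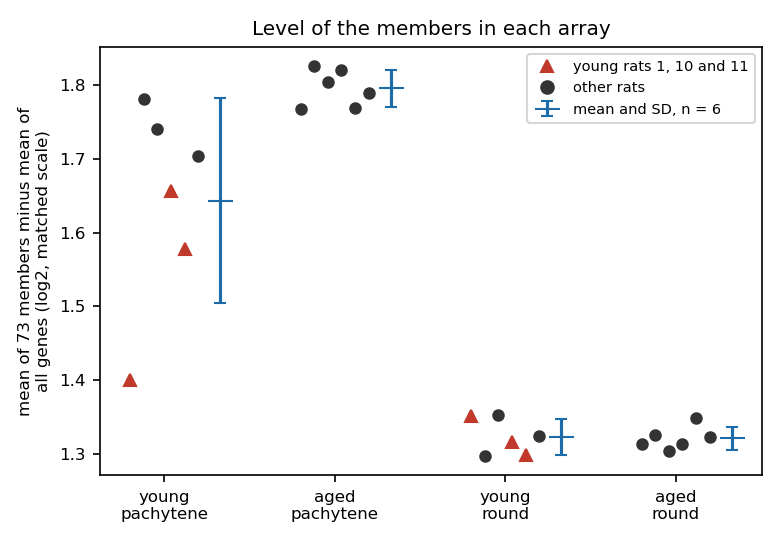
Mean log2 level of the 73 members minus that of all genes in each array (vertical axis, matched scale) in the 4 groups, with young rats 1, 10 and 11 as triangles and mean and SD beside the points. The triangles are the 3 lowest of the young pachytene arrays, and round spermatid arrays lie close together below all pachytene arrays.

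Within young pachytene spermatocytes, where 3 of the 6 arrays stand apart, most members followed the mean of the others. The correlation of a member with the mean of the others over 6 rats had a median of 0.891, and 63 of 73 were above 0. In aged pachytene spermatocytes the median was 0.312, 0.211 in round spermatids of young rats and 0.284 in those of aged rats. The sizes of the correlations, signs left aside, had a median of 0.892 in members and 0.733 in all other genes in young pachytene spermatocytes, against 0.396 and 0.384 in aged ones. Of the other genes 52.4% lay above 0 in young pachytene spermatocytes, against 86.3% of the members. These are descriptions over 6 arrays that share their normalization, and 3 arrays are too few to give them without young rats 1, 10 and 11. Mrpl39 (0.988), Mrpl14 (0.987) and Mrpl28 (0.986) followed the mean most closely in young pachytene spermatocytes. Mrpl47 (-0.961), Mrpl2 (-0.883) and Mrpl49 (-0.846) ran against it.

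Mrpl53 rose with age in pachytene spermatocytes from 10.06, 10.81 and 11.17 (lowest, median and highest) in young to 11.26, 11.31 and 11.43 in aged rats on the within-type scale. No arrays overlapped. The change was 0.59 (SE 0.166, n = 6 rats per age, adjusted p = 0.0153), and 0.21 without young rats 1, 10 and 11 (adjusted p = 0.0147). Mrps11 (1372215_at), a counterpart of a small subunit protein near the exit of the messenger, lay at 9.41, 10.03 and 10.29 in young and 10.41, 10.53 and 10.55 in aged rats. Again the ages were separate, with a change of 0.54 (SE 0.137, adjusted p = 0.00971), and 0.23 without the 3 rats (adjusted p = 0.00666). Its neighbour Mrpl46 lay at 9.03, 9.39 and 9.49 and at 9.57, 9.64 and 9.67. All aged arrays lay above all young ones, by 0.30 (SE 0.074, adjusted p = 0.0077), and by 0.17 without the 3 rats (adjusted p = 0.0187).

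Mrpl38 (0.53), Mrpl35 (0.48), Mrps34 (0.38), Mrps9 (0.36) and Mrps16 (0.35) were the next largest rises. Without the 3 young rats they were 0.28, 0.15, 0.29, 0.19 and 0.17, and each still passed. Mrpl35 was lowest in young rat 1, at 10.84, where the median of the young was 11.64 and the aged lay at 11.97 to 12.06. Mrps34 was lowest in young rat 10, at 11.19, against a young median of 11.62. Mrpl51 also rose by 0.59 on its brightest probe set (adjusted p = 0.00971), and by 0.24 without the 3 rats, but 2 of its 3 other probe sets fell, by 0.24 and 0.23. The direction of Mrpl51 is therefore not settled.

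Mrpl49 (1373241_at), a large subunit protein without a bacterial counterpart, had the largest fall. It lay at 7.76, 7.91 and 8.21 in young and at 7.15, 7.25 and 7.53 in aged pachytene spermatocytes, without overlap. The change was -0.65 (SE 0.085, adjusted p = 0.000392), and -0.51 without the 3 young rats (adjusted p = 0.000808). Mrps35 (-0.43), Mrpl16 (-0.41), Mrpl2 (-0.38), Mrpl17 (-0.34), Mrpl3 (-0.33), Mrps30 (-0.33), Mrps26 (-0.29) and Mrpl40 (-0.17) fell too. Young and aged arrays overlapped for Mrps35 (7.97 to 8.50 and 7.47 to 8.16) and for Mrpl17 (10.34 to 10.92 and 9.95 to 10.42). Without the 3 young rats Mrps35, Mrpl17, Mrps30 and Mrpl40 no longer passed, with changes of -0.29, -0.15, -0.20 and -0.11 (adjusted p = 0.13, 0.235, 0.222 and 0.123). Mrpl16 (-0.31), Mrpl3 (-0.26), Mrps26 (-0.19) and Mrpl2 (-0.18) still passed.

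**Figure D4:**
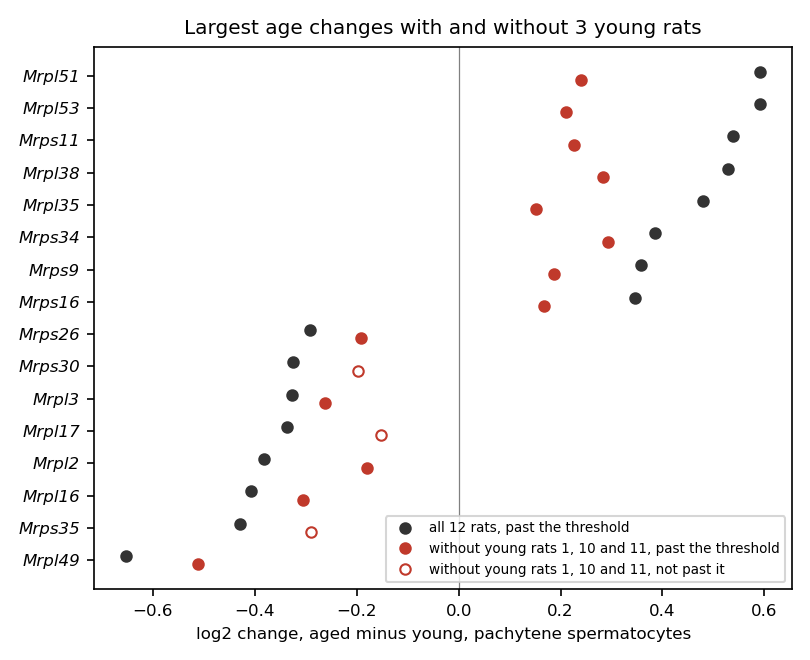
Log2 change with age in pachytene spermatocytes (horizontal axis) for the 8 members with the largest rise and the 8 with the largest fall, from all 12 rats (black) and without young rats 1, 10 and 11 (red), filled where the threshold was passed. All 8 rises and 5 of the 8 falls pass in both, and each change is smaller without these rats.

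Round spermatids had 9 members higher and 10 lower with age, close to the 12.4% and 12.5% of all genes, and a median of -0.01. The deposited scale, where all genes shifted by a median of 0.15, gave 32 higher and 1 lower. Median centring (all genes 0.01) gave 4 and 1. Relative to all genes the members' median was 0.06 higher on both of these scalings. Leaving out young rats 1, 10 and 11 gave 2 and 0. The shares of all genes called under these settings are not given here. Beside these, 6 of 10 Sertoli markers fell and 3 of 9 pachytene markers rose with age in this fraction, and their part was not tested. Leaving out 1 rat gave 6 calls without aged rat 10, 8 without aged rat 9 and 9 without young rat 11. Mrpl19 (0.34), Mrps23 (0.33), Mrpl46 (0.32), Mrps33 (0.31) and Mrpl4 (0.29) had the largest rises. Mrpl19, a counterpart of the bacterial L19, lay at 7.87, 8.31 and 8.63 in young and 8.49, 8.64 and 8.73 in aged rats, and the ages overlapped (adjusted p = 0.0265). Mrpl2 had the largest fall, from 9.27, 9.68 and 10.44 to 9.10, 9.20 and 9.29 (-0.53, SE 0.148, adjusted p = 0.026). Its highest aged array was just above its lowest young one. Without young rats 1, 10 and 11 Mrpl19, Mrps23, Mrpl46, Mrps33 and Mrpl4 no longer passed. Their changes were 0.17, 0.17, 0.22, 0.16 and 0.16 (adjusted p = 0.189, 0.121, 0.0972, 0.124 and 0.0609). Mrpl2 did not pass either (-0.31, adjusted p = 0.0827). The 2 that passed were Mrpl41 (0.19, adjusted p = 0.0403) and Mrps9 (0.17, adjusted p = 0.0442).

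The age change itself differed between the cell types for 18 members by the interaction term of the limma fit, and all 18 changed less upwards, or more downwards, in round spermatids. Over all genes 8.9% differed in that direction and 7.34% in the other. Without young rats 1, 10 and 11 there were 10, against 5.7% and 5.23%. With the offset and no further normalization the direction turned, with 30 members in the other direction and 0 in this one, on a scale where all genes shifted by a median of 0.29. Relative to all genes the members' median difference was -0.08 on that scale and -0.11 on the matched scale. With the offset and no further normalization the share of all genes called is not given here. Of the 18, 13 passed as higher in pachytene spermatocytes and 5 passed as lower in round spermatids. Mrpl48, Mrpl50 and Mrps25 are in both counts. Some of the 18 therefore passed in neither cell type alone, Mrps2 among them. These calls rest on the brightest probe set of each gene. For the difference, other probe sets of Mrpl12 (-0.035), Mrpl52 (-0.067), Mrpl57 (-0.23) and Mrps2 (-0.13 and -0.085) did not pass. The other one of Mrps24 passed (-0.11).

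Mrpl53 differed most, by -0.68 (SE 0.192, adjusted p = 0.023), with a change of -0.03 in round spermatids. Without young rats 1, 10 and 11 its difference was -0.29 (adjusted p = 0.00759). Mrps25 (1371548_at), a small subunit protein without a bacterial counterpart, lay at 10.93, 11 and 11.08 in young and 11.14, 11.16 and 11.21 in aged pachytene spermatocytes. In round spermatids it lay at 10.76, 10.89 and 11.27 in young and 10.53, 10.67 and 10.79 in aged rats. The ages were separate in pachytene spermatocytes and overlapped in round spermatids, with young rat 10 highest there. Its change was 0.17 (adjusted p = 0.00891) in the first and -0.28 (adjusted p = 0.0213) in the second, a difference of -0.43 (SE 0.077, adjusted p = 0.0013). Mrpl48 (0.22 and -0.21) and Mrpl50 (0.12 and -0.16) also passed in opposite directions, with differences of -0.39 and -0.27 (adjusted p = 0.00224 and 0.00239). For Mrpl50 this rests on its brightest probe set. The other one rose by 0.32 in pachytene spermatocytes (adjusted p = 0.00842) and gave 0.05 in round spermatids (adjusted p = 0.72). Its difference of -0.21 did not pass (adjusted p = 0.169). On the deposited scale Mrpl48 turned to -0.115 in pachytene spermatocytes, and Mrpl50 to -0.078 there and 0.09 in round spermatids. With the offset and no further normalization the differences of Mrpl48 and Mrpl50 turned to 0.099 and 0.16. The directions of Mrpl48 and Mrpl50 are therefore not settled. Without the 3 young rats the differences of Mrps25, Mrpl48 and Mrpl50 were -0.29, -0.23 and -0.25 (adjusted p = 0.00678, 0.0378 and 0.0134). None of the 3 then passed in either cell type alone. The changes in the same order were 0.12, 0.12 and 0.10 in pachytene spermatocytes (adjusted p = 0.0656, 0.127 and 0.11) and -0.18, -0.12 and -0.17 in round spermatids (adjusted p = 0.0911, 0.199 and 0.111).

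**Figure D5:**
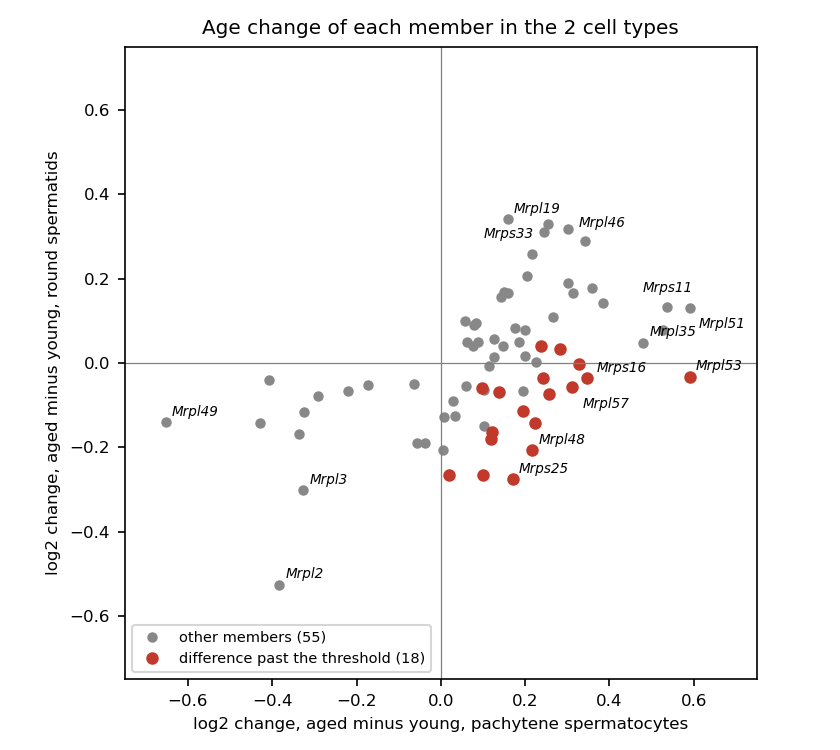
Log2 change with age in pachytene spermatocytes (horizontal axis) and in round spermatids (vertical axis) for the 73 members, each on its within-type scale, with the 18 members whose age change differed between cell types in red. The red points lie at or right of 0 on the horizontal axis and mostly below 0 on the vertical one, and most grey points lie near the centre.

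Other genes of mitochondrial protein synthesis were set beside the members. Of 5 ribosomal proteins known under other symbols, 1 was higher and 2 lower in round spermatids, with Dap3, a GTP-binding protein of the small subunit, at -0.81 and Chchd1 at -0.81. Of 12 translation factors 4 were higher and 7 lower: the elongation factor Tufm was at -0.76 and the recycling factor Mrrf at 0.87. Aminoacyl-tRNA synthetases and the amidotransferase that charges glutamine had 6 higher and 12 lower of 18, from Hars2 (-1.41) to Ears2 (1.0). Of 30 genes of ribosome assembly and rRNA modification 13 were higher and 14 lower, with Nsun4, an rRNA methyltransferase, at 2.57 and Mterf4, its partner, at -1.15. Genes of mitochondrial DNA upkeep and transcription had 7 higher and 6 lower of 16, and genes of insertion and quality control 4 and 6 of 10. Over all genes 49.2% were higher and 39.1% lower. The assembly list (43.3% and 46.7%) and the DNA upkeep list (43.8% and 37.5%) lay near these shares. With age in pachytene spermatocytes these lists had, in the same order, 3 and 1, 6 and 0, 9 and 2, 10 and 5, 6 and 4, and 5 and 1 genes higher and lower. The shares of all genes were 25.6% and 19.1%. Without young rats 1, 10 and 11 the counts were 2 and 1, 3 and 0, 6 and 0, 5 and 2, 4 and 1, and 2 and 0. The shares of all genes were then 17.2% and 12.7%.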

How the data were processed

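The deposited table holds log2 signals of 31099 probe sets, made by the authors from scanned arrays. The program that summarised the probes and any normalization are not given in the sources used here. After 57 control probe sets were left out, 31042 were fitted with limma (3.58.1 in R 4.3.3, lmFit and eBayes), and p-values were Benjamini-Hochberg adjusted over all of them. Age was fitted in 1 cell type at a time. A fit of 4 group means gave the contrast of the cell types and the interaction with age. The control probe sets differed between cell types by 0.61 ± 0.77 (SD) before the offset and by -0.03 ± 0.17 after it.

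Named members are the 8 with the largest change in each direction, those of highest and lowest signal, and a few of known function. Also named are members past the threshold in both age comparisons with opposite signs, and those past it for the difference of the age change. Members and lists were chosen with earlier results of these data known. All 73 members were found by gene ID in the RefSeq gene table. On simulated data, changes of 1.5-fold were found in 72% of cases for age in pachytene spermatocytes, in 96% for age in round spermatids, in 90% for the contrast of cell types and in 90% for the interaction (50 probe sets each). The simulated noise was independent, and few of the 31042 probe sets were changed. In the data 25.6% of genes were higher and 19.1% lower with age in pachytene spermatocytes. The members' median age changes of 0.15 and -0.01 (log2) were also smaller than 1.5-fold. These rates are therefore not shown to hold for the changes reported here.

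Titles of the same age with the same number were taken as 1 rat. After removal of group means they correlated at -0.079 to 0.381, with the rat's own partner the best match for 6 of 12. Promoters and figures used Python 3.11.15. Proteins were not used here.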

Additional observations from a re-analysis of the deposited data

Results flagged for a closer look

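The age change differed between the cell types for 18 members by the interaction term of the limma fit, with a lower change in round spermatids for each. Each was measured on its brightest probe set. The differences (log2) were -0.68 for Mrpl53, -0.43 for Mrps25, -0.42 for Mrps16, -0.40 for Mrpl57, -0.39 for Mrpl48, -0.37 for Mrpl23, -0.36 for Mrpl44, -0.35 for Mrpl52 and -0.35 for Mrps7. They were -0.32 for Mrps21, -0.29 for Mrps18b, -0.29 for Mrps24, -0.27 for Mrpl50, -0.25 for Mrpl54, -0.25 for Mrpl34, -0.23 for Mrpl12, -0.18 for Mrps2 and -0.16 for Mrps18a.

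Single arrays stood far from the other 5 of their group, by the gap to the nearest over the whole range, in 17 of 216 groups of values tested. Chance gives about 1 in 20. Young pachytene rat 1 was the low array for Mrps12 (9.58), Mrps2 (8.71), Mrps21 (10.02) and Mrps24 (10.73) on the within-type scale. Young pachytene rat 10 was the low one for Mrpl41 (11.70) and Mrps34 (11.19). In aged pachytene spermatocytes Mrpl12 (11.72, rat 5) and Mrpl36 (10.77, rat 10) were high in 1 array, and Mrpl17 (9.95, rat 9) and Mrpl38 (8.83, rat 10) were low. In young round spermatids Mrpl36 (10.31) was low and Mrps16 (11.09) high in rat 10, and Mrps30 (8.64) was high in rat 11. In aged round spermatids Mrpl34 (9.50, rat 10) and Mrps26 (8.69, rat 2) were high, and Mrpl10 (8.53, rat 3) and Mrps35 (7.41, rat 10) were low.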

How the results depend on the processing

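Calls between cell types moved least: 59 to 62 of 73 when each rat was left out, and 58 to 70 over all other settings run. For age in pachytene spermatocytes the 36 calls became 27 to 42 with 1 rat left out, 59 with median centring and 21 without young rats 1, 10 and 11. For age in round spermatids the 19 calls became 6 to 27 with 1 rat left out, 5 with median centring, 33 on the deposited scale and 2 without those rats. For the difference of the age change the 18 calls became 12 to 23, 10 without those rats and 30 with the offset and no further normalization. The cause of these moves was not tested. Among these other settings, shares of all genes called are given only without those rats, for age in pachytene spermatocytes and for the difference. Quantile normalization within each cell type, an alternative chosen after seeing the data, gave 21 calls for the difference (2 higher and 19 lower).

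With the rat as a replicate block, 60 members passed between cell types and 19 for the difference. With the number shared between ages as a replicate block, although these are different rats, 35 passed in pachytene spermatocytes and 18 in round spermatids, so no count moved by over 1.5 times. Same-numbered rats of different age correlated at -0.738 to 0.077.

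Single members were recomputed under all settings for 39 named members between cell types and 40 for age in pachytene spermatocytes. The numbers were 41 for age in round spermatids and 30 for the difference. The sign changes listed are among these, and only where the member passed in the main fit or under the changed setting. Over all members called, scalings also turned Mrpl38 between cell types (-0.37 and -0.43 with the offset and either median centring or no further normalization) and Mrpl19 for age in pachytene spermatocytes (-0.18 on the deposited scale).

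On the deposited scale, the log2 value for age in pachytene spermatocytes changed sign for Mrpl14 (-0.25), Mrpl10 (-0.21), Mrpl48 (-0.12), Mrpl50 (-0.0778) and Mrps2 (-0.22). On the deposited scale, the log2 value for age in round spermatids changed sign for Mrpl55 (0.0495), Mrps6 (0.0486), Mrpl42 (0.0319), Mrps24 (0.0746), Mrps18b (0.23), Mrpl50 (0.0899), Mrpl53 (0.17) and Mrps16 (0.22). With the offset and median centring, the log2 value for the cell types changed sign for Mrps2 (-0.23), Mrps18a (-0.20), Mrpl48 (-0.48), Mrps25 (-0.28), Mrpl23 (-0.36) and Mrpl54 (-0.15). With the offset and no further normalization, the log2 value for the cell types changed sign for Mrps2 (-0.29), Mrps18a (-0.26), Mrpl48 (-0.54), Mrps25 (-0.34), Mrpl23 (-0.42) and Mrpl54 (-0.21). Without young rats 1, 10 and 11, the log2 value for the cell types changed sign for Mrps25 (-0.0694). In young rats alone, the log2 value for the cell types changed sign for Mrps18b (0.12) and Mrpl57 (0.14). In aged rats alone, the log2 value for the cell types changed sign for Mrps18a (-0.0728), Mrpl48 (-0.12), Mrps25 (-0.22) and Mrpl23 (-0.16). With the offset and no further normalization, the log2 value for the difference of the age change changed sign for Mrpl48 (0.0986), Mrpl23 (0.0505), Mrpl44 (0.0597), Mrpl14 (0.38), Mrps18a (0.19), Mrps18b (0.15), Mrpl12 (0.12), Mrps12 (0.32), Mrpl50 (0.16), Mrpl34 (0.21), Mrpl54 (0.0598), Mrps2 (0.31), Mrps21 (0.10), Mrps24 (0.0865) and Mrps7 (0.0466).

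The probe summary is unknown, so the deposited scale cannot be placed on an absolute one. The absent control lay at 4.38 and 4.19 in young and aged pachytene arrays and at 6.77 and 6.90 in round spermatid arrays. The stated purity, 6 rats per age and the 3 young rats that stand apart limit the age comparisons, and no batch is given in the labels.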
